A study of Mus musculus with 12 samples.

Results

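The genes of the inflammasome and of necroptosis, 2 routes of lytic cell death, were followed here in mouse retinas injected with NMDA or PBS. The 10 genes *Casp1*, *Casp4*, *Nlrp3*, *Pycard*, *Gsdmd*, *Il1b*, *Il18*, *Ripk1*, *Ripk3* and *Mlkl* were taken by exact match of the gene name, and all 10 were found among the 55487 genes listed. After NMDA, *Il1b* rose in WT retinas, 7 of the 10 genes rose in sh*Pax6* retinas, where 19.1% of all tested genes rose, and *Il1b* fell in JNK3 KO retinas. The 7 became 4 without 1 sh*Pax6* PBS library, and 1 with no filter on low values or with the spread of the sh*Pax6* groups alone.

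The libraries fall into 6 groups of 2, each made from poly(A) RNA of a pool of more than 3 retinas. WT retinas came from C57BL/6J mice (B6J), sh*Pax6* retinas from B6J mice infected with an AAV2.7m8 vector in which the U6 promoter drives an shRNA against *Pax6* beside GFP, and JNK3 KO retinas from Jnk3-/- mice, a germline knockout of the kinase JNK3 encoded by *Mapk10*. Each genotype received an intravitreal injection of 1 μL of PBS or of 40 mM NMDA, which is 40 nmol of this glutamate receptor agonist. The mice given the vector were 2 months old, and the age of the others at collection and the time from NMDA to collection are not given in the sources used here. No library from retinas infected with the control vector (shScramble) was analysed here, so infection and knockdown cannot be told apart. The 2 libraries of a group are described as biological replicates, but whether each came from an experiment of its own is not given in the sources used here, and the p-values measure the spread between these libraries.

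An inflammasome is a protein platform that forms in the cytosol when a sensor such as NLRP3 detects damage or infection. The adaptor ASC, encoded by *Pycard*, joins the sensor to caspase-1, which cuts the precursors of IL-1β and IL-18 and the pore protein gasdermin D. Caspase-11, the product of mouse *Casp4*, cuts gasdermin D after binding bacterial lipopolysaccharide inside the cell. Necroptosis runs instead through the kinases RIPK1 and RIPK3 to MLKL, which breaks the plasma membrane, and caspase-8 holds this route in check. Both routes are controlled largely at the level of protein cutting and phosphorylation, which RNA levels do not show. In the retina, microglia and blood-derived myeloid cells are known sources of IL-1β after injury.

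Values are FPKM, fragments scaled to transcript length and library size, as the authors deposited them, and fold changes are on the scale log2(FPKM + 0.1), which understates the change of low genes. The summed FPKM lay between 805627 and 820180 in the WT NMDA libraries and between 541210 and 576922 in the other 10, and rescaling every library to the same sum (TPM) moved the median of all tested genes in the WT response from -0.09 to -0.66 on the log2 scale. Checked against markers of the labelled tissue, the summed FPKM of 8 retinal ganglion cell markers was 518 to 533 in WT PBS and 300 to 320 in WT NMDA, 487 to 530 in JNK3 KO PBS and 141 to 142 in JNK3 KO NMDA. In sh*Pax6* this sum was 167 in both PBS libraries, below that of WT after NMDA, and 58.7 to 65.6 under NMDA. The median log2 fold change of the 8 markers with NMDA was -1.88 in WT, -2.46 in sh*Pax6* and -1.78 in JNK3 KO. After rescaling to TPM the WT median was -2.46. The sums rest largely on the highest markers, among them *Thy1*, which read 142 and 145 FPKM in WT PBS and 136 and 154 FPKM in WT NMDA. *Pax6* read 173 and 177 FPKM in WT PBS against 94.6 and 92.8 FPKM in sh*Pax6* PBS. After NMDA the WT pair read 55.4 and 53.8 FPKM and the sh*Pax6* pair 67.5 and 58.7 FPKM, so under NMDA the libraries labelled sh*Pax6* were not lower in *Pax6* than the WT libraries. *Mapk10* read 42.8 and 50.7 FPKM in WT PBS, 9.47 and 8.75 FPKM in JNK3 KO PBS, 8.98 and 6.00 FPKM in WT NMDA, and 6.65 and 13.8 FPKM in JNK3 KO NMDA, and which part of the gene the knockout removes is not given in the sources used here.

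Genes whose mean exceeded 1 FPKM in any of the 6 groups were tested, 16471 in number, and all 10 genes passed this filter. *Nlrp3* passed through the WT NMDA group alone, with a mean of 1.20 FPKM there, and *Mlkl* through the WT NMDA and sh*Pax6* NMDA groups alone. A call required an adjusted p (Benjamini-Hochberg, over all tested genes, from limma) under 0.05.

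In WT retinas 1 of the 10 genes, *Il1b*, was called higher after NMDA and 0 were called lower, beside 26% of all tested genes called higher and 33.8% called lower. After rescaling to TPM 1 was called higher and 1, *Ripk1*, lower, beside 13.6% and 50.2% of all genes, while the 10 turned in median from 0.48 to -0.06 on the log2 scale. In sh*Pax6* retinas 7 of the 10 were called higher (*Casp4*, *Nlrp3*, *Pycard*, *Il1b*, *Il18*, *Ripk1* and *Mlkl*) and 0 lower, beside 19.1% and 11% of all genes. In JNK3 KO retinas 1 of the 10, again *Il1b*, was called lower and 0 higher, beside 6.1% and 4.33% of all genes. At an unadjusted p under 0.05, limma gave 3 genes in WT and 9 in sh*Pax6*, all higher, and 3 in JNK3 KO, all lower, beside 27.7%, 25.8% and 13.1% of all tested genes in those directions. The median log2 fold change of the 10 genes was 0.48 in WT, 2.08 in sh*Pax6* and -0.64 in JNK3 KO, beside -0.09, 0.10 and -0.01 over all tested genes. The sh*Pax6* median was 1.04 with log2(FPKM + 1) and 1.37 without the first sh*Pax6* PBS library. That of JNK3 KO was -0.36 with log2(FPKM + 1) and -0.25 without the first JNK3 KO PBS library. Without a filter on low values, or with the spread taken from the sh*Pax6* groups alone, 1 of the 10 genes passed in sh*Pax6*, and without the first sh*Pax6* PBS library 4 did. In WT 2 genes passed without the first WT NMDA library or without any 1 of the sh*Pax6* PBS and JNK3 KO PBS libraries.

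**Figure D1:**
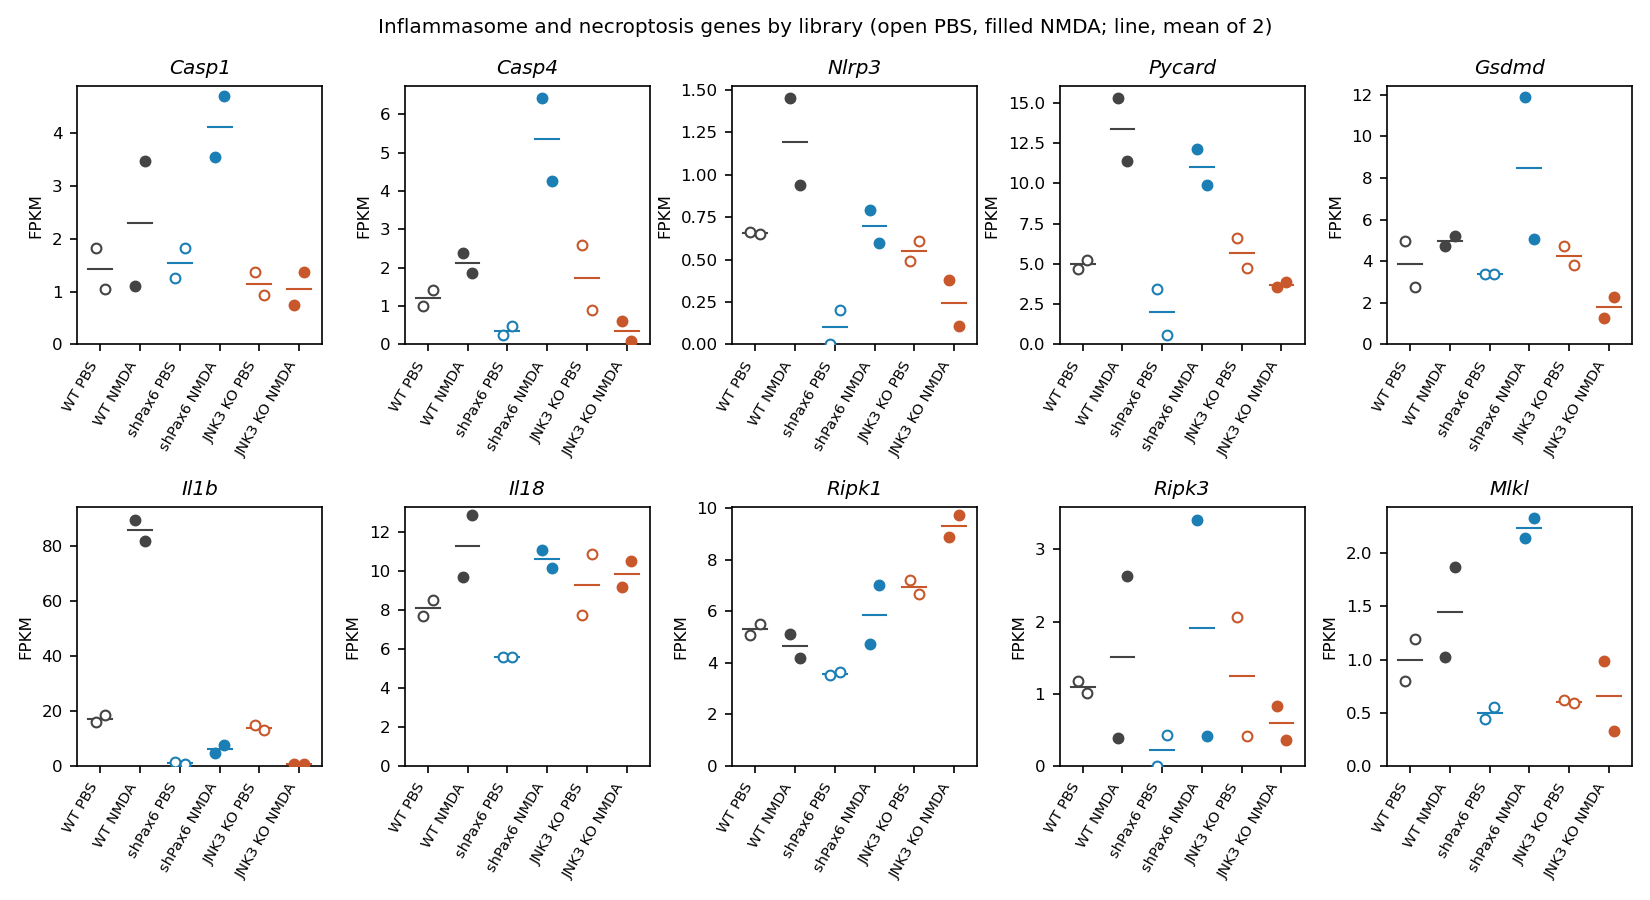
FPKM of each of the 10 genes (vertical axes, linear, from 0) in the 12 libraries by group (horizontal axes), with open points for PBS, filled points for NMDA and a line at the mean of the 2 libraries. Il1b peaks in the WT NMDA libraries at 89.7 and 82.1 FPKM, whereas Casp4 and Mlkl peak in the shPax6 NMDA libraries and Ripk1 in the JNK3 KO NMDA libraries.

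The order of single libraries, read without a test, set more genes apart than the calls did. In sh*Pax6*, 9 of the 10 genes had both NMDA libraries above both PBS libraries and 0 had both below, beside 35% and 22% of all tested genes. *Ripk3* was the exception. In WT, 5 of the 10 (*Casp4*, *Nlrp3*, *Pycard*, *Il1b* and *Il18*) had both NMDA libraries above and 0 below, beside 36.9% and 44.3% of all genes, and after rescaling to TPM 2 lay above and 1 below, beside 21.6% and 61.5% of all genes on that scale. In JNK3 KO, 5 of the 10 (*Casp4*, *Nlrp3*, *Pycard*, *Gsdmd* and *Il1b*) had both NMDA libraries below and 1, *Ripk1*, above, beside 32.8% and 28.7% of all genes.

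**Figure D2:**
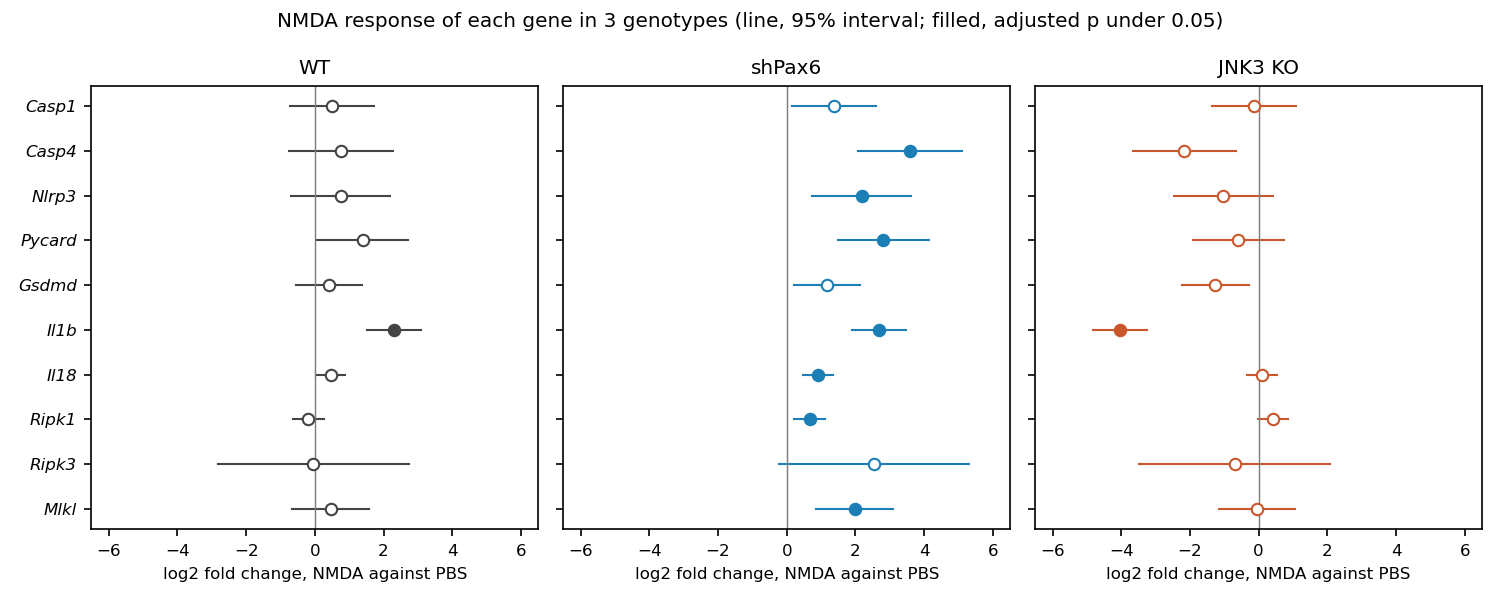
Log2 fold change of NMDA against PBS on the log2(FPKM + 0.1) scale (horizontal axes) for the 10 genes (vertical axis) in WT, shPax6 and JNK3 KO retinas, with lines for the 95% interval from limma and filled points for an adjusted p under 0.05. In shPax6 all 10 estimates are above 0 and 7 points are filled, in WT and JNK3 KO 1 point is filled, Il1b, at 2.31 and at -4.03.

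Among the cytokines, *Il1b* changed in all 3 genotypes. It encodes the precursor of IL-1β and spans positions 129364570 to 129371139 of chromosome 2 in GRCm38, on the minus strand. The WT PBS pair held 15.9 and 18.6 FPKM and the WT NMDA pair 89.7 and 82.1 FPKM. The sh*Pax6* PBS pair held 1.3 and 0.54 FPKM and the sh*Pax6* NMDA pair 4.74 and 7.63 FPKM. The JNK3 KO PBS pair held 14.94 and 12.96 FPKM and the JNK3 KO NMDA pair 0.86 and 0.67 FPKM. NMDA libraries therefore lay above PBS libraries in WT and sh*Pax6* and below them in JNK3 KO, with no overlap in any genotype. The log2 fold change was 2.31 (SE 0.347, adjusted p = 0.000333, limma) in WT, 2.69 (SE 0.347, adjusted p = 0.000477) in sh*Pax6* and -4.03 (SE 0.347, adjusted p = 0.00023) in JNK3 KO. These calls held in 24, 23 and 24 of the 24 settings tried, and the sh*Pax6* call was lost with the spread taken from the sh*Pax6* groups alone.

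The rise of *Il1b* in sh*Pax6* started from a lower level. Under PBS, *Il1b* was lower in sh*Pax6* than in WT by a log2 fold change of -4.19 (SE 0.347, adjusted p = 9.33e-05, limma), and the sh*Pax6* NMDA libraries stayed below the WT PBS libraries. The difference between the WT and sh*Pax6* responses was -0.38 on the log2 scale (95% interval -1.49 to 0.73, adjusted p = 0.547), which did not pass the threshold. That difference ran from -0.97 with TPM to 0.35 with log2(FPKM + 1). Its sign changed in 3 of 24 settings, among them the one without the second sh*Pax6* PBS library. The WT response exceeded that of JNK3 KO by 6.34 (SE 0.491, adjusted p = 8.53e-06), and the sh*Pax6* response exceeded it by 6.72 (SE 0.491, adjusted p = 4.56e-05). This last comparison was added after the values had been seen, and the comparisons share libraries.

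The summed level of neutrophil markers moved with *Il1b*, but not every marker did. The summed FPKM of the 12 listed neutrophil markers ranged from 230 to 253 in WT PBS, 1978 to 2019 in WT NMDA, 8.39 to 12.4 in sh*Pax6* PBS, 71.1 to 82.2 in sh*Pax6* NMDA, 171 to 184 in JNK3 KO PBS and 17.6 to 18.3 in JNK3 KO NMDA. Of 10 markers tested, 6 rose in WT and 6 in sh*Pax6*, beside 26% and 19.1% of all tested genes. In JNK3 KO 5 fell, beside 6.1% of all genes. *Ly6g*, *Mmp8* and *Ngp* passed the filter through the WT NMDA group alone, so their calls in WT are no support for a rise. *S100a8* and *S100a9* made up 90.5% to 90.9% of the WT NMDA sum, and the other 10 markers summed to 44.2 to 45.7 in WT PBS and 184 to 188 in WT NMDA. *Cxcr2*, a chemokine receptor of neutrophils, read 6.03 and 5.69 FPKM in WT PBS and 6.42 and 5.33 FPKM in WT NMDA (adjusted p = 1, limma). *Csf3r*, the receptor for granulocyte colony-stimulating factor, read 18.2 and 18.9 FPKM in WT PBS and 17.0 and 14.2 FPKM in WT NMDA (adjusted p = 0.375), so these did not follow *Il1b* there. The gene closest to *Il1b* over the 12 libraries was *S100a9*, a calcium-binding protein abundant in neutrophils (Pearson r = 0.977 on the log2 scale, a description over libraries that share groups). *S100a9* read 92.9 and 99.6 FPKM in WT PBS against 1146 and 1115 FPKM in WT NMDA. In sh*Pax6* it stood at 2.23 and 1.84 FPKM under PBS and at 31.3 and 32.0 FPKM under NMDA, and in JNK3 KO at 70.7 and 76.1 FPKM under PBS and at 4.34 and 6.61 FPKM under NMDA. *Elane*, a neutrophil granule protease, was at 0 in both libraries of 5 groups, and *Ngp* in both libraries of 4 groups. The part of these cells in the *Il1b* values was not tested, and in bulk retina more cells of a type cannot be told apart from more RNA per cell.

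**Figure D3:**
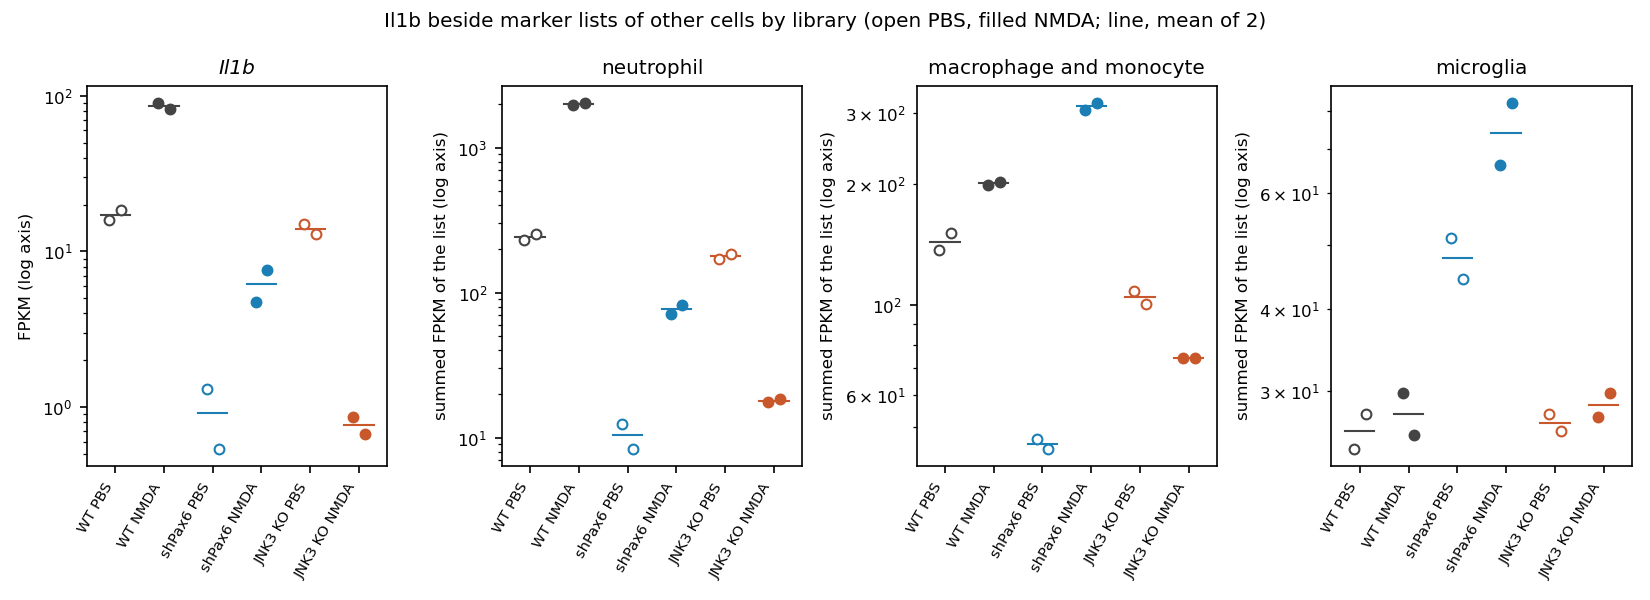
FPKM of Il1b and summed FPKM of the neutrophil (12 genes), macrophage and monocyte (8 genes) and microglia (8 genes) marker lists by library (vertical axes, log scale), with open points for PBS, filled points for NMDA and a line at the mean of the 2 libraries. Il1b and the neutrophil list are highest in WT NMDA and lowest in shPax6 PBS and JNK3 KO NMDA, whereas the macrophage and monocyte list is highest in shPax6 NMDA at 306 to 317.

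The other cytokine, *Il18* on chromosome 9 (50554827 to 50581840), rose in sh*Pax6*. WT libraries read 7.70 and 8.53 FPKM under PBS and 9.69 and 12.9 FPKM under NMDA. In sh*Pax6* it stood at 5.58 and 5.60 FPKM under PBS and at 11.1 and 10.1 FPKM under NMDA. In JNK3 KO it stood at 7.74 and 10.9 FPKM under PBS and at 9.19 and 10.5 FPKM under NMDA. The sh*Pax6* libraries separated by treatment, with a log2 fold change of 0.91 (SE 0.189, adjusted p = 0.00637, limma), and the JNK3 KO libraries overlapped. In WT the log2 fold change of 0.46 did not pass (adjusted p = 0.0627) and turned to -0.33 after a correction for gene length. It passed in 5 of 24 settings, among them quantile normalization, where it was 0.71.

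The sensor *Nlrp3*, on chromosome 11 from 59541568 to 59566956, was the lowest of the 10 genes, with a mean of 0.573 FPKM over the 12 libraries. The WT libraries held 0.66 and 0.65 FPKM under PBS and 1.45 and 0.94 FPKM under NMDA. In sh*Pax6*, *Nlrp3* was listed at 0 and at 0.20 FPKM under PBS and stood at 0.79 and 0.60 FPKM under NMDA. The JNK3 KO libraries held 0.49 and 0.61 FPKM under PBS and 0.38 and 0.11 FPKM under NMDA. The groups did not overlap by treatment in any genotype, and the sh*Pax6* rise passed the threshold (log2 fold change 2.19, SE 0.637, adjusted p = 0.0295, limma). This call held in 16 of 23 settings, the value fell to 0.63 with a pseudocount of 1, and without the first sh*Pax6* PBS library, in which the gene was at 0, it was 1.40 and no longer called. The call was also lost without either sh*Pax6* NMDA library, with adjusted p from 0.05 to 0.126 over these 3. The log2 fold changes of 0.75 in WT (adjusted p = 0.341) and -1.03 in JNK3 KO (adjusted p = 0.378) did not pass. Nlrp3-201, the only transcript of the gene tested, did not pass in sh*Pax6* (1.40, adjusted p = 0.345, limma). It read 0 and 0.20 FPKM under PBS there and 0.20 and 0.60 FPKM under NMDA. Nlrp3-203, of 676 bases, gave 0.58 of the 0.79 FPKM in the first sh*Pax6* NMDA library.

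The adaptor *Pycard*, on chromosome 7 from 127989708 to 127993867 on the minus strand, was called higher after NMDA in sh*Pax6* alone. In WT it stood at 4.66 and 5.27 FPKM under PBS and at 15.3 and 11.4 FPKM under NMDA. In sh*Pax6* it stood at 3.43 and 0.61 FPKM under PBS and at 12.2 and 9.92 FPKM under NMDA. In JNK3 KO it stood at 6.58 and 4.77 FPKM under PBS and at 3.54 and 3.85 FPKM under NMDA. Both WT and sh*Pax6* NMDA libraries lay above every PBS library, and the JNK3 KO NMDA libraries below those of their own PBS group. The sh*Pax6* log2 fold change of 2.81 passed (SE 0.586, adjusted p = 0.00641, limma). It ranged from 1.65 without the second sh*Pax6* PBS library to 3.96 without the first, and the call was lost without the first sh*Pax6* NMDA library. The WT log2 fold change of 1.40 missed the threshold (adjusted p = 0.0661) but passed in 8 of 24 settings, and the difference of -1.41 between the WT and sh*Pax6* responses did not pass (adjusted p = 0.189). That difference was -0.25 without the second sh*Pax6* PBS library and -2.57 without the first, where it passed (adjusted p = 0.000942). Exons of *Pycard* overlap those of the antisense gene *Gm45205* by up to 485 bases, and the sources used here do not state whether the counting used strand.

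The inflammatory caspases *Casp1* and *Casp4* are neighbours on chromosome 9. *Casp1*, at 5298517 to 5307265, encodes the caspase that cuts IL-1β and gasdermin D. Its WT libraries read 1.82 and 1.04 FPKM under PBS and 1.11 and 3.47 FPKM under NMDA, and its sh*Pax6* libraries 1.25 and 1.83 FPKM under PBS and 3.54 and 4.69 FPKM under NMDA. The JNK3 KO libraries read 1.37 and 0.93 FPKM under PBS and 0.74 and 1.37 FPKM under NMDA. Only the sh*Pax6* groups separated by treatment, and *Casp1* passed in none of the 3 responses, the nearest being the log2 fold change of 1.37 in sh*Pax6* (SE 0.539, adjusted p = 0.0864, limma), which passed without either WT NMDA library.

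With all libraries kept, *Casp4*, at 5308828 to 5336783, had the largest fold change of the 10 genes in sh*Pax6*. WT libraries read 1.01 and 1.43 FPKM under PBS and 2.38 and 1.86 FPKM under NMDA. In sh*Pax6* it stood at 0.25 and 0.47 FPKM under PBS and at 6.42 and 4.27 FPKM under NMDA. In JNK3 KO it stood at 2.58 and 0.89 FPKM under PBS and at 0.60 and 0.09 FPKM under NMDA. The NMDA libraries were the highest of all in sh*Pax6* and lay below the PBS libraries in JNK3 KO. The log2 fold change was 3.58 in sh*Pax6* (SE 0.667, adjusted p = 0.00361, limma), 0.76 in WT (adjusted p = 0.358) and -2.16 in JNK3 KO (adjusted p = 0.0759). Without the first sh*Pax6* PBS library the sh*Pax6* value of *Pycard*, 3.96, was larger. The sh*Pax6* value of *Casp4* was 2.21 with log2(FPKM + 1). Its call was lost without a filter on low values and held in the other 23 of 24 settings. Neither tested transcript of the gene passed in sh*Pax6* (Casp4-201 at 0.34, adjusted p = 0.951, and Casp4-206 at 2.92, adjusted p = 0.418), and Casp4-206, of 361 bases, gave 5.59 of the 6.42 FPKM in the first NMDA library. The WT response was smaller than that of sh*Pax6* by 2.82 (a log2 difference of -2.82, SE 0.943, adjusted p = 0.0334) and larger than that of JNK3 KO by 2.92 (SE 0.943, adjusted p = 0.0276). The former was lost without any 1 of the WT libraries, the sh*Pax6* NMDA libraries or the first sh*Pax6* PBS library (values from -3.17 to -2.47 over all libraries left out in turn). The latter was lost without any 1 of the WT libraries, the first JNK3 KO PBS library or the second JNK3 KO NMDA library (values from 1.98 to 3.86). The sh*Pax6* response exceeded that of JNK3 KO by 5.74 (SE 0.943, adjusted p = 0.00396) and held with each library left out (4.80 to 6.68).

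The 250 bases before the start of transcription were read from RefSeq promoters of GRCm38.p6, in which 9 of the 10 genes had an entry and *Gsdmd* none. A set of 4 motifs was searched on both strands: GGG and TTCC with any 3 bases between them for NF-κB, TGANTCA (N, any base) for AP-1, TTCNNNGAA for STAT factors, and a pair of TTTC with any 2 bases between for interferon regulatory factors. *Casp4* alone held the NF-κB motif, with 3 matches, against 4.65% of all 32851 promoters with at least 1. The STAT motif was found in *Ripk1* alone (7.02% of all promoters), as 2 copies of TTCCCGGAA before 1 of its 2 start sites, and the motifs for AP-1 (6.75%) and for interferon regulatory factors (2.98%) in none of the 9. The windows of *Casp4*, chr9:5308599-5308848 on the plus strand, and of *Il1b*, chr2:129371140-129371389 on the minus strand, are shown because these genes had the largest changes, with the NF-κB matches in capitals. The last 21 bases of the *Casp4* window lie inside the GENCODE gene model, which starts before the RefSeq start site. The *Ripk1* window with the STAT matches, chr13:34002624-34002873, lies wholly inside the GENCODE model of that gene, and its other window held no match. A match of letters is a description of the window and not a binding site.
Casp4: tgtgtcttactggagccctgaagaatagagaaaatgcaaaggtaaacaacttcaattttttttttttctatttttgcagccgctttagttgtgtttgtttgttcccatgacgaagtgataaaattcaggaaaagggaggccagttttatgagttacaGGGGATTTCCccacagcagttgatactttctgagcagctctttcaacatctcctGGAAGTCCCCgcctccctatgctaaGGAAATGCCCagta
Il1b: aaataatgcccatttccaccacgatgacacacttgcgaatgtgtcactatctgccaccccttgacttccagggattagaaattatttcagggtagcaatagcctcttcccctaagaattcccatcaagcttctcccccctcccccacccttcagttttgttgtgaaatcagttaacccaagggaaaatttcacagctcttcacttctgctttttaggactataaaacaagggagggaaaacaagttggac
The *Casp4* window holds its matches at -93 to -84, -39 to -30 and -14 to -5 from the RefSeq start site, the last of them inside the GENCODE gene model, and the *Il1b* window holds none of the 4 motifs.

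*Gsdmd*, the pore-forming target of both caspases, lies on chromosome 15 from 75862327 to 75867408. The WT pair read 4.95 and 2.75 FPKM under PBS and 4.72 and 5.22 FPKM under NMDA. In sh*Pax6* it stood at 3.37 and 3.39 FPKM under PBS and at 11.9 and 5.07 FPKM under NMDA. In JNK3 KO it stood at 4.71 and 3.80 FPKM under PBS and at 1.27 and 2.28 FPKM under NMDA. NMDA libraries were higher in sh*Pax6*, lower in JNK3 KO and overlapped PBS in WT, and none of these responses passed alone (log2 fold changes 1.18, -1.26 and 0.42, adjusted p = 0.0671, 0.103 and 0.433, limma). The sh*Pax6* value was 0.57 without the first sh*Pax6* NMDA library and 1.79 without the second, where it passed (adjusted p = 0.0212). The differences between responses passed: 1.68 for WT minus JNK3 KO (SE 0.605, adjusted p = 0.0431) and 2.44 for sh*Pax6* minus JNK3 KO (SE 0.605, adjusted p = 0.0243). The former held in 10 of 24 settings, with values from 1.27 to 2.09 as libraries were left out, and was kept only without the first WT PBS, either sh*Pax6* NMDA or the second JNK3 KO NMDA library. The latter held in 16 of 24, with values from 1.83 to 3.05, and was lost without either sh*Pax6* PBS library, the first sh*Pax6* NMDA library, either JNK3 KO PBS library or the first JNK3 KO NMDA library. The coding transcript Gsdmd-201 passed in neither difference (0.599, adjusted p = 0.767, and 1.72, adjusted p = 0.554, limma). Of the tested transcripts only Gsdmd-206, a retained intron, passed for WT minus JNK3 KO (6.42, adjusted p = 0.0356). For sh*Pax6* minus JNK3 KO no tested transcript passed. Gsdmd-205, also a retained intron, gave 5.11 of the 11.9 FPKM in the first sh*Pax6* NMDA library.

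Among the necroptosis genes, *Ripk1* was the highest and the steadiest. This kinase lies below the TNF receptor and is encoded on chromosome 13 from 34002363 to 34037147. The WT libraries held 5.09 and 5.51 FPKM under PBS and 5.13 and 4.20 FPKM under NMDA. The sh*Pax6* libraries held 3.53 and 3.63 FPKM under PBS and 4.71 and 7.01 FPKM under NMDA. The JNK3 KO libraries held 7.21 and 6.66 FPKM under PBS and 8.87 and 9.71 FPKM under NMDA. The 2 JNK3 KO NMDA libraries were the highest of the 12. The log2 fold change was 0.67 in sh*Pax6* (SE 0.198, adjusted p = 0.0318, limma), -0.19 in WT (adjusted p = 0.449) and 0.42 in JNK3 KO (adjusted p = 0.244). The sh*Pax6* call held in 10 of 24 settings, and without the second sh*Pax6* NMDA library the value was 0.39 and not called. The call was also lost without any 1 of the PBS libraries or of the JNK3 KO NMDA libraries, with adjusted p from 0.0508 to 0.113 over these 9. The WT response was smaller than the sh*Pax6* response by a log2 difference of -0.85 (SE 0.280, adjusted p = 0.0308), a call that held in 11 of 24 settings. With libraries left out it ran from -1.14 to -0.57 and was kept only without the first WT NMDA, the first sh*Pax6* NMDA or either JNK3 KO PBS library. Exons of *Ripk1* overlap those of *Gm17084* on the same strand by up to 511 bases and those of *Serpinb6a* on the other strand by up to 241 bases.

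*Ripk3*, the kinase that phosphorylates MLKL, could not be followed at this precision. It is encoded on chromosome 14 from 55784995 to 55788865 on the minus strand. The 2 libraries of a group differed by a median of 2.23 on the log2 scale, the most among the 10 genes. The values were 1.18 and 1.01 FPKM in WT PBS, 0.39 and 2.63 FPKM in WT NMDA, 3.41 and 0.41 FPKM in sh*Pax6* NMDA, 2.07 and 0.42 FPKM in JNK3 KO PBS, and 0.83 and 0.36 FPKM in JNK3 KO NMDA. In sh*Pax6* PBS it was listed at 0 and at 0.43 FPKM. No response passed, and the 95% interval in sh*Pax6* ran from -0.23 to 5.31.

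*Mlkl*, the executioner of necroptosis, is encoded on chromosome 8 from 111311797 to 111338177 on the minus strand. In WT it stood at 0.80 and 1.19 FPKM under PBS and at 1.02 and 1.87 FPKM under NMDA. In sh*Pax6* it stood at 0.44 and 0.55 FPKM under PBS and at 2.14 and 2.33 FPKM under NMDA, which were the 2 highest of the 12. In JNK3 KO it stood at 0.62 and 0.59 FPKM under PBS and at 0.99 and 0.33 FPKM under NMDA. The log2 fold change was 1.98 in sh*Pax6* (SE 0.491, adjusted p = 0.0148, limma), 0.46 in WT (adjusted p = 0.448) and -0.04 in JNK3 KO (adjusted p = 0.99). The sh*Pax6* call held in 19 of 24 settings, and the value was 1.11 with log2(FPKM + 1). With libraries left out the value ran from 1.84 to 2.11. The call was lost without the first sh*Pax6* PBS or the second sh*Pax6* NMDA library. The sh*Pax6* response did not differ past the threshold from that of WT (adjusted p = 0.1) or of JNK3 KO (adjusted p = 0.0779). The former difference passed after rescaling to TPM (-2.08, adjusted p = 0.0361), with the length correction and without the second JNK3 KO NMDA library, and the latter without the first JNK3 KO NMDA library (2.69, adjusted p = 0.0324) and with the unadjusted threshold.

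Beside the rise of 7 genes in sh*Pax6* stood a rise of macrophage, monocyte and leukocyte markers. The summed FPKM of the 8 macrophage and monocyte markers went from between 44.2 and 46.6 to between 306 and 317 with NMDA. *Lyz2* supplied 252 and 250 FPKM of these NMDA sums. Of the 8 markers 7 passed, beside 19.1% of all tested genes called higher in sh*Pax6*. *Mrc1* passed the filter through the sh*Pax6* NMDA group alone, so a call of it there is no support for a rise. The 8 markers shared by leukocytes went from between 60.2 and 66.8 to between 301 and 308, and 7 of the 8 passed. The leukocyte sum also went up in WT, from between 110 and 118 to between 277 and 303, with 4 markers called higher and 2 lower. In JNK3 KO it went down, from between 105 and 117 to between 61.4 and 62.7, with 1 called higher and 6 lower. Of all tested genes 26% were called higher and 33.8% lower in WT, and 4.33% and 6.1% in JNK3 KO. The 8 microglia markers went in sh*Pax6* from between 44.4 and 51.2 to between 66.2 and 82.3. Of these markers 1 of 7 tested passed, which is not above the 19.1% of all tested genes called higher. In WT the macrophage and monocyte sum went from between 137 and 151 to between 199 and 202, of which *Lyz2* supplied 155 and 158, while 3 of the 8 rose and 2, *Ccr2* and *Ly6c2*, fell (log2 fold changes -0.72 and -0.65). After rescaling to TPM that WT sum was 253 to 274 under PBS and 247 under NMDA. On that scale 1 of the 8 rose and 2 fell, beside 13.6% and 50.2% of all tested genes. The macrophage and monocyte sum in FPKM went in JNK3 KO from between 101.1 and 108.8 to 74.3 in both libraries. No marker of these 3 lists was at 0 in both libraries of any group. Their part in the changes of the 10 genes was not tested.

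Before NMDA, the sh*Pax6* retinas already differed from WT. Under PBS 1 of the 10 genes, *Il1b*, was called lower in sh*Pax6* and 0 higher, beside 11.2% and 5.36% of all tested genes, and 6 of the 10 were lower at an unadjusted p under 0.05, as were 19.3% of all genes. A total of 2 passed without either sh*Pax6* library of either treatment, or without the second JNK3 KO NMDA library. The nearest to the threshold was *Nlrp3*, at -2.12 on the log2 scale (adjusted p = 0.0522, limma), which passed in 5 of 23 settings. Its value was -2.92 without the second sh*Pax6* PBS library and -0.60 with log2(FPKM + 1). The neutrophil, macrophage and leukocyte sums were lower in sh*Pax6* PBS than in WT PBS and the microglia sum higher. The retinal ganglion cell sum was lower as well, at 167 against 518 to 533, with 5 of the 8 markers called lower, 0 higher and a median log2 fold change of -1.64. The Muller glia sum was higher, at 571 to 584 against 378 in both WT PBS libraries, through *Glul* and *Rlbp1*, while of the 6 markers 2 were called higher and 1 lower with a median of -0.06. The part of these shifts in the values of the 10 genes was not tested. Between JNK3 KO and WT under PBS, 0 of the 10 genes were called in either direction by limma, beside 1.1% of all genes higher and 0.407% lower. None of the 10 had an unadjusted p under 0.05 there, against 15.1% of all genes in either direction, the lowest being 0.0862 for *Ripk1*.

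Counted over the 10 genes, the WT response was lower than the sh*Pax6* response for 2 (*Casp4* and *Ripk1*) and higher for 0, beside 31.4% and 18.3% of all tested genes. It was higher than the JNK3 KO response for 3 (*Casp4*, *Gsdmd* and *Il1b*) and lower for 0, beside 23.5% and 27.9%. The sh*Pax6* response was higher than the JNK3 KO response for 5 (*Casp4*, *Nlrp3*, *Pycard*, *Gsdmd* and *Il1b*) and lower for 0, beside 12.1% and 5.62%. After rescaling to TPM the counts were 4 lower and 0 higher for WT minus sh*Pax6*, beside 47.2% and 9.2% of all genes, and 1 higher and 1 lower for WT minus JNK3 KO, beside 12.8% and 42.3%. An unadjusted p under 0.05 in limma was reached by 2, 4 and 7 genes in these comparisons, in the same directions, beside 35.1%, 26.3% and 20.6% of all genes. The contrast of WT with sh*Pax6* rested on single libraries, since 0 of the 10 genes passed without either WT PBS library, without the second WT NMDA library or without the second sh*Pax6* NMDA library. In the same contrast 1 passed without the first WT NMDA, the first library of either sh*Pax6* group or the first JNK3 KO NMDA library. Between WT and JNK3 KO 1 gene passed without the second WT PBS library, either WT NMDA library or the first JNK3 KO PBS library, and 2 without the first WT PBS, the second JNK3 KO PBS or either JNK3 KO NMDA library. For the sh*Pax6* response against that of JNK3 KO, 2 genes passed without the first sh*Pax6* NMDA library or the second JNK3 KO PBS library, and 3 without the first sh*Pax6* PBS, the first JNK3 KO PBS or the second JNK3 KO NMDA library.

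The transcript table gives estimates for 44 transcripts of the 10 genes, of which 17 passed the same filter. In WT 1 of the 17 was called higher (Il1b-201) and 1 lower (Ripk1-201), beside 11.7% and 23.5% of all 49940 tested transcripts. In sh*Pax6* 3 were called higher (Il1b-201, Il18-202 and Mlkl-202), beside 4.71% of all transcripts called higher and 3.63% lower. In JNK3 KO 1 was called higher (Ripk1-204) and 1 lower (Il1b-201), beside 0.537% and 0.775%. Mlkl-202 passed the filter through the sh*Pax6* NMDA group alone and Ripk1-204 through the JNK3 KO NMDA group alone, so their calls in those groups are no support for a rise. Between sh*Pax6* PBS and WT PBS 2 were called lower (Il1b-201 and Il18-202), beside 1.79% of all transcripts called lower and 0.937% higher. Il1b-201, the coding transcript of 1356 bases, carried 89.7 and 82.0 FPKM of *Il1b* in the WT NMDA libraries.

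For *Il18* and *Ripk1* single transcripts stood apart between groups, and shares of transcripts were not tested. Il18-202 was listed at 0 in both sh*Pax6* PBS libraries, against 5.54 and 3.18 FPKM in WT PBS, while Il18-204 held 2.89 and 4.56 FPKM there against 0.52 and 2.94 FPKM, values that overlapped (adjusted p = 0.679, limma). After NMDA Il18-202 stood at 2.00 and 0.75 FPKM in sh*Pax6* (adjusted p = 0.00526, limma). Ripk1-204 was listed at 0 in 9 of the 10 libraries outside JNK3 KO NMDA and at 0.04 FPKM in the remaining one, and stood at 2.02 and 1.57 FPKM in JNK3 KO NMDA. In WT, Ripk1-201 fell from 2.93 and 3.26 FPKM to 1.93 and 1.01 FPKM (log2 fold change -1.09, adjusted p = 0.0473) while Ripk1-203 held 1.34 and 1.74 FPKM under PBS and 3.00 and 3.19 FPKM under NMDA (adjusted p = 0.0961). These are estimates that split reads among transcripts sharing exons. The libraries of sh*Pax6* NMDA show how far such splits can differ: the first held 5.59 FPKM of Casp4-206 and Casp4-201 was listed at 0, and the second held 3.08 FPKM of Casp4-201 with Casp4-206 listed at 0.

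**Figure D4:**
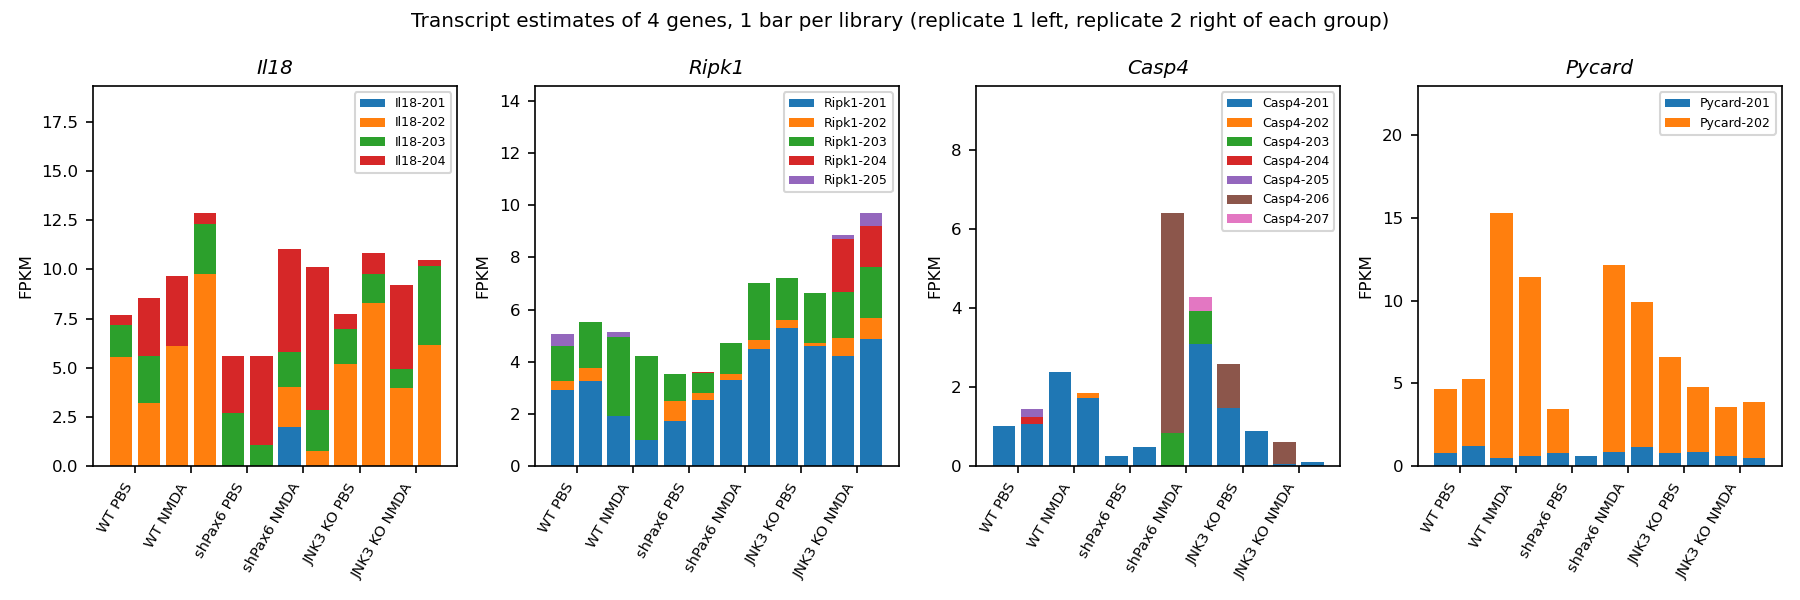
Transcript FPKM of Il18, Ripk1, Casp4 and Pycard (vertical axes, stacked bars from 0), with 1 bar per library and 1 colour per transcript. Il18-202 is missing from both shPax6 PBS bars, Ripk1-204 appears in the 2 JNK3 KO NMDA bars, and Pycard-202 makes up most of the high WT NMDA and shPax6 NMDA bars.

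Across the 6 groups the 10 genes fell into different orders. By group mean, *Il1b*, *Nlrp3*, *Pycard* and *Il18* were highest in WT NMDA, *Casp1*, *Casp4*, *Gsdmd*, *Ripk3* and *Mlkl* in sh*Pax6* NMDA, and *Ripk1* in JNK3 KO NMDA. After rescaling to TPM the highest group of *Pycard* and *Il18* was sh*Pax6* NMDA, at means of 19.1 and 18.4 against 16.5 and 13.9 in WT NMDA, and that of the other 8 genes was the one named. For *Il1b* each group in the order WT NMDA, WT PBS, JNK3 KO PBS, sh*Pax6* NMDA and sh*Pax6* PBS lay clear of the next, and sh*Pax6* PBS and JNK3 KO NMDA overlapped. For *Casp4* and *Mlkl* the sh*Pax6* NMDA libraries lay clear of WT NMDA, the next group. For *Il18* no neighbours in the order were separated except WT PBS and sh*Pax6* PBS. Among the other 9 genes, the protein-coding gene most alike over the 12 libraries was *Myo1f* for *Casp4* (Pearson r = 0.947), *Cd302* for *Pycard* (0.955), *Lrrc45* for *Nlrp3* (0.957), *Serpina3i* for *Mlkl* (0.943), *Hgs* for *Casp1* (0.914), *Nadk* for *Il18* (0.925), *Eif4g1* for *Ripk1* (0.922), *Plscr3* for *Ripk3* (0.92) and *Lbp* for *Gsdmd* (0.873), out of 13871 searched.

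Other genes of these routes were read from 4 lists, whose counts stand beside 26% of all tested genes higher and 33.8% lower in WT, 19.1% and 11% in sh*Pax6*, and 4.33% and 6.1% in JNK3 KO. Of 11 tested IL-1 family ligands, receptors and adaptors, 3 rose and 4 fell in WT, 8 rose in sh*Pax6*, and 1 rose and 3 fell in JNK3 KO. The shares in WT were near those of all genes. *Il1a*, the sister cytokine of *Il1b*, went from 0.66 and 0.50 FPKM to 6.18 and 3.70 FPKM in WT (log2 fold change 2.85, adjusted p = 0.000973, limma) and fell in JNK3 KO (log2 fold change -2.12, adjusted p = 0.031). It passed the filter through the WT NMDA group alone, so its call in WT, among the 3 above, is no support for a rise. *Il1r2*, the decoy receptor for IL-1, rose in WT from 6.13 and 8.80 to 19.6 and 17.1 FPKM and in sh*Pax6* from 0.32 and 0.08 to 5.28 and 5.09 FPKM, and fell in JNK3 KO from 4.97 and 4.64 to 0.35 and 0.50 FPKM. *Il1rn*, the antagonist of the IL-1 receptor, did not pass in WT, with 16.5 and 18.5 FPKM under PBS and 18.9 and 21.2 FPKM under NMDA, rose in sh*Pax6* from 0.64 and 0.08 to 7.76 and 9.78 FPKM, and fell in JNK3 KO from 7.57 and 8.08 to 1.33 and 1.07 FPKM. *Myd88*, the adaptor of the IL-1 receptor, rose in WT (log2 fold change 1.11) and in sh*Pax6* (0.60).

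Of 14 tested inflammasome sensors and regulators, 1 rose and 7 fell in WT, 6 rose in sh*Pax6*, and 3 fell in JNK3 KO, beside 26% of all tested genes higher and 33.8% lower in WT, 19.1% higher in sh*Pax6* and 6.1% lower in JNK3 KO. *Naip2* and *Tlr4* passed the filter through the sh*Pax6* NMDA group alone, so a call of either there is no support for a rise. *Cd14*, the lipopolysaccharide co-receptor, rose in WT from 6.28 and 6.91 to 57.5 and 62.3 FPKM, and in sh*Pax6* from 1.67 and 0.78 to 7.13 and 6.75 FPKM. *Gbp7*, an interferon-induced GTPase, fell in WT (log2 fold change -1.97) and rose in sh*Pax6* (0.85), and *Casp12* fell in WT (log2 fold change -2.67, adjusted p = 0.0164, limma). Of 2 tested genes for other gasdermins and membrane rupture, *Ninj1*, which ruptures the membrane of dying cells, rose in WT from 14.9 and 14.8 to 65.8 and 74.1 FPKM and in sh*Pax6* from 7.77 and 6.42 to 27.8 and 31.1 FPKM. In JNK3 KO *Ninj1* stood at 18.0 and 14.6 FPKM under PBS and at 18.5 and 17.7 FPKM under NMDA (adjusted p = 0.535).

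Of 30 tested genes upstream of necroptosis and its brakes, 11 rose and 12 fell in WT, 12 rose and 3 fell in sh*Pax6*, and 2 rose and 2 fell in JNK3 KO. Of all tested genes 26% rose and 33.8% fell in WT, 19.1% and 11% in sh*Pax6*, and 4.33% and 6.1% in JNK3 KO, and the shares of the list were not far from these in WT. *Tnfrsf1a*, the TNF receptor that signals through RIPK1, rose in sh*Pax6* (log2 fold change 1.14), and its WT value of 0.48 passed but turned to -0.09 after rescaling to TPM, where it did not pass. *Casp8*, the brake on RIPK3, rose in sh*Pax6* from 1.09 and 1.14 to 4.04 and 4.72 FPKM (log2 fold change 1.88, adjusted p = 0.000975, limma) and did not pass in WT (0.44, adjusted p = 0.197). *Zbp1*, a nucleic acid sensor that binds RIPK3, rose in WT from 4.94 and 5.65 to 11.5 and 9.24 FPKM and in sh*Pax6* from 5.47 and 5.87 to 16.1 and 23.8 FPKM. *Xiap*, an inhibitor of caspases, fell in WT from 47.0 and 46.7 to 10.8 and 10.6 FPKM, and *Tlr3* fell and *Sharpin*, a subunit of the linear ubiquitin ligase, rose there (log2 fold changes -1.80 and 1.67). After rescaling to TPM, 3 of the 30 were called higher and 14 lower in WT, beside 13.6% and 50.2% of all tested genes, and *Zbp1* no longer passed there (0.39, adjusted p = 0.157). Beside the same shares, the counts in WT under TPM were 2 higher and 4 lower of the 11 genes of the IL-1 family, of which *Il1r2* no longer passed (0.74, adjusted p = 0.158), and 1 higher and 8 lower of the 14 inflammasome sensors and regulators.

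**Figure D5:**
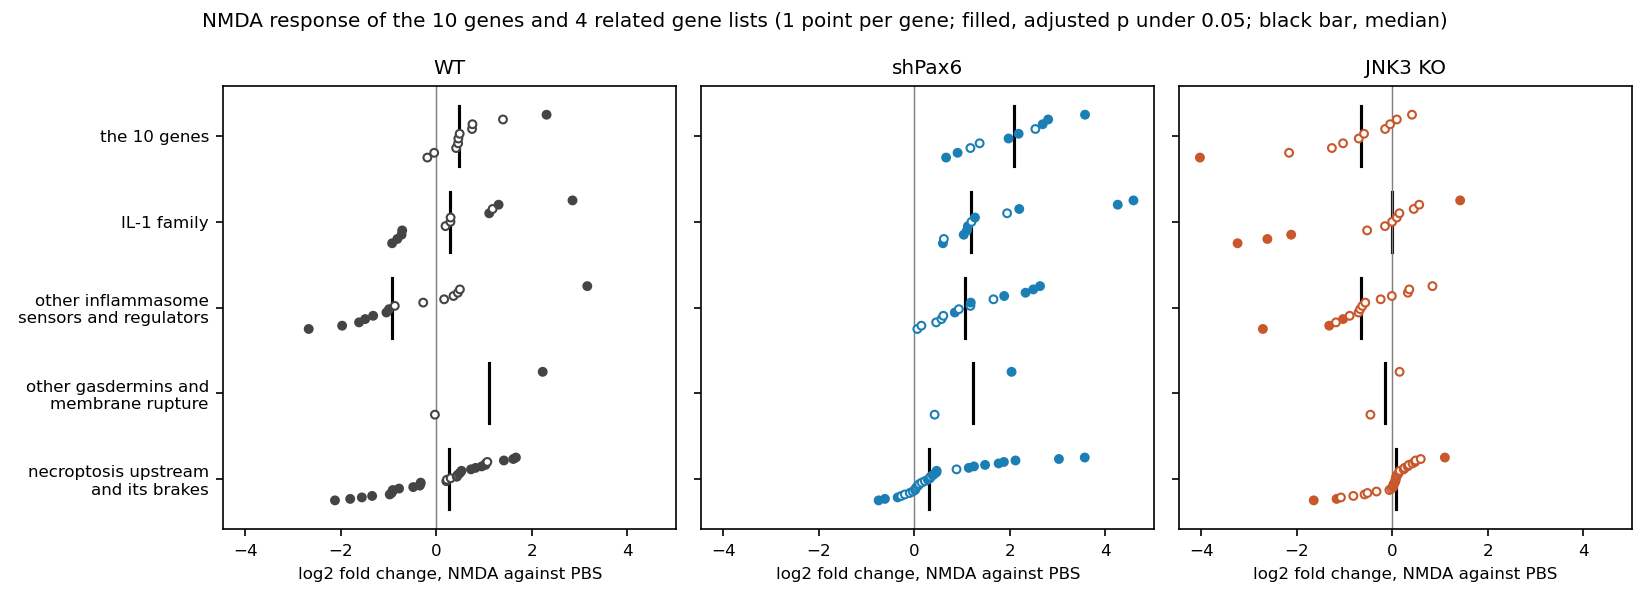
Log2 fold change of NMDA against PBS (horizontal axes, log2(FPKM + 0.1) scale) for the 10 genes and the 4 related lists (vertical axis) in WT, shPax6 and JNK3 KO retinas, with 1 point per tested gene, filled at an adjusted p under 0.05, and a black bar at the median. In shPax6 the medians of the 10 genes, the IL-1 family and the other inflammasome genes are 2.08, 1.20 and 1.06, and in JNK3 KO the median of the 10 genes is -0.64. The other inflammasome genes include Naip2 and Tlr4, which passed the filter through the shPax6 NMDA group alone.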

How the data were processed

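Poly(A) RNA of mouse retina was sequenced as paired ends in 12 libraries. Per the submitters' processing notes the tools were STAR 2.7.1a, RSEM 1.3.3, edgeR 3.36.0 and R 4.1.0 with GRCm38.p6. The authors deposited FPKM per gene and per transcript. These are not counts, so the depth behind a value is unknown and precision was judged from the replicates. The members and gene lists were chosen with earlier results of these data known.

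Values were used as log2(FPKM + 0.1). Features whose mean exceeded 1 FPKM in any group entered the fit, 16471 of 55487 genes and 49940 of 142699 transcripts. A model of 6 group means was fitted with limma 3.58.1 (lmFit, eBayes with an intensity trend, 6 residual degrees of freedom) in R 4.3.3, without a replicate block, and p-values were adjusted over all features. The script was tested on simulated data. Positions and spliced lengths came from GENCODE M21 by gene ID. Genes named are the 10 members, at most 3 per related list with the largest called change in WT, *Tnfrsf1a*, *Casp8*, *Zbp1* and *Il1rn*, listed markers, the targeted genes and the most alike gene of each member. *Gm45205*, *Gm17084*, *Serpinb6a* and the transcripts were named after their values were seen. Alternatives covered pseudocount, filter, scaling, gene length (lowess span 0.3), spread, block, threshold and each library left out. Figures were drawn with Python 3.11.15, pandas 2.3.3 and matplotlib 3.10.9.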

Additional observations from a re-analysis of the deposited data

Results flagged for a closer look

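A total of 10 differences between NMDA responses passed an adjusted p under 0.05 in limma. Chosen as they are by that threshold, they are given as values. For WT minus sh*Pax6* the log2 difference was -2.82 for *Casp4* (adjusted p = 0.0334) and -0.85 for *Ripk1* (adjusted p = 0.0308). For WT minus JNK3 KO it was 6.34 for *Il1b* (adjusted p = 8.53e-06), 2.92 for *Casp4* (adjusted p = 0.0276) and 1.68 for *Gsdmd* (adjusted p = 0.0431). For sh*Pax6* minus JNK3 KO it was 6.72 for *Il1b* (adjusted p = 4.56e-05), 5.74 for *Casp4* (adjusted p = 0.00396), 3.40 for *Pycard* (adjusted p = 0.0228), 3.22 for *Nlrp3* (adjusted p = 0.0388) and 2.44 for *Gsdmd* (adjusted p = 0.0243). The *Il1b* differences held in 24 of 24 settings in both comparisons. The sh*Pax6* minus JNK3 KO difference of *Casp4* held in 23 of 24, that of *Pycard* in 16 of 24 and that of *Nlrp3* in 10 of 23. With libraries left out the *Pycard* difference ran from 2.24 to 4.55 and was lost without either sh*Pax6* NMDA library or any 1 of the JNK3 KO libraries, and the *Nlrp3* difference ran from 2.42 to 4.01 and was lost without either WT PBS library, the first library of either sh*Pax6* group, either JNK3 KO PBS library or the second JNK3 KO NMDA library. The sum of neutrophil markers moved with *Il1b*, and the part of these cells in these differences was not tested.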

How the results depend on the processing

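Of 20 called values of single genes, 5 held in every setting, all of them for *Il1b*, and no called value changed sign. Over the alternatives, 368 of the values of called genes stayed past the threshold and 110 did not. The number of the 10 genes called in the WT response was 1 and became 2 with log2(FPKM + 1), 2 with log2(FPKM + 0.5), 2 with TPM, 3 with quantile normalization, 2 with the spread from the groups compared alone and 2 with an unadjusted p under 0.05 and an absolute log2 fold change above 1. In sh*Pax6* 7 became 1 with no filter, 4 with quantile normalization and 1 with the spread of the groups compared. In JNK3 KO 1 became 3 with the unadjusted threshold. Between sh*Pax6* PBS and WT PBS 1 became 2 with the length correction, 2 with no intensity trend and 4 with the unadjusted threshold. For WT minus sh*Pax6* 2 became 0 with no filter, 4 with TPM, 0 with quantile normalization, 1 with the spread of the groups compared and 1 with the unadjusted threshold. For WT minus JNK3 KO 3 became 1 with no filter and 1 with the length correction, and for sh*Pax6* minus JNK3 KO 5 became 1 with no filter and 2 with the spread of the groups compared. With 1 library left out the counts ran from 1 to 2, 4 to 8, 1 to 1, 1 to 2, 0 to 0, 0 to 2, 1 to 4 and 2 to 5 in the order WT, sh*Pax6*, JNK3 KO, sh*Pax6* PBS, JNK3 KO PBS, WT minus sh*Pax6*, WT minus JNK3 KO and sh*Pax6* minus JNK3 KO. Replicate numbers did not pair the libraries (correlation of deviations from -0.0973 to 0.0858), and with the replicate block 3 genes were called in WT in place of 1, while *Nlrp3* lost its call for sh*Pax6* minus JNK3 KO. The causes were not tested. After rescaling to TPM the WT values of *Casp1*, *Gsdmd*, *Il18* and *Mlkl*, which were not called, changed sign, and *Ripk1*, at -0.19 and not called, was called lower at -0.75, whereas it was 0.21 with quantile normalization and 0.47 with the length correction, not called in either. Transcripts were tested in 1 setting. The depth behind the low values of *Nlrp3*, *Ripk3* and *Mlkl* is unknown, and with 2 libraries per group a change that missed the threshold is not shown to be absent.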

Other observations

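Markers of other cells also differed between the groups whose values are compared above. The summed FPKM of 3 erythrocyte genes was 422 to 428 in WT NMDA and at most 85.8 in the other 5 groups. With NMDA it rose in sh*Pax6* from between 22.8 and 36.2 to between 71.6 and 77.3. In JNK3 KO it fell from between 84.6 and 85.8 to between 46.8 and 50.4. This sum thus moved in the direction of *Il1b* in each genotype, and its part in the *Il1b* values was not tested. The 4 lens genes summed to 148 to 152 in WT NMDA, 129 to 130 in JNK3 KO NMDA and 77.7 to 84.2 in sh*Pax6* NMDA. The 4 T cell genes summed to 2.24 and 6.07 in the sh*Pax6* NMDA libraries and to at most 1.12 elsewhere.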
